A study of Mus musculus with 38 samples.

Results

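The genes of the eukaryotic translation initiation factors were followed in whole bone marrow from mice with MLL-fusion leukaemia and from normal mice. They were taken as every probe set annotated to exactly 1 symbol beginning with Eif1 to Eif6, leaving out Eif2s3x, Eif2s3y and the eIF2 kinases (Eif2ak). This gave 115 probe sets for 41 genes, of 45037 probe sets without controls and 18193 genes with 1 symbol on the array. A further 6 probe sets carried an Eif symbol among several symbols and were not counted. No probe set by this rule stood for Eif1, Eif2s1, Eif3g, Eif3j1, Eif3j2 or Eif4g1. The eIF2, eIF3 and eIF4 factors are therefore covered only in part. Of the 41 genes, 40 passed the filter on dim signal, through 103 of the 115 probe sets; Eif4a3, the helicase of the exon junction complex, did not. RNA was measured on 38 mouse oligonucleotide arrays, 1 per mouse. The leukaemias were 9 MLL-AF1p, 8 MLL-AF10, 5 MLL-GAS7, 5 MLL-AF9 and 7 MLL-ENL mice, each cohort started by a retrovirus that carried the named fusion of the MLL gene. The virus was put into c-kit+ marrow progenitors of the mouse, and these were given to lethally irradiated C57BL/6 recipients of the same strain, male or female. Marrow was taken when the sick animals were killed. The 4 controls were marrow of wild type C57BL/6 mice, for which the labels name no irradiation and no transplant, so transplantation and leukaemia cannot be told apart. All RNA came from cryopreserved marrow cells by Trizol extraction. Ages and times to disease are not given in the sources used here.

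Initiation factors bring the ribosome, the initiator tRNA and the messenger RNA together at a start codon. eIF2 carries the initiator tRNA with GTP, eIF2B reloads eIF2 with GTP, eIF1 and eIF1A keep the scanning ribosome open, and the many-subunit eIF3 holds the small ribosomal subunit together with the messenger. The eIF4 factors bind the cap and unwind the leader of the messenger, the 4E-binding proteins block the cap-binding protein under control of mTORC1, and eIF5 and eIF5B complete start codon recognition and the joining of the large subunit.

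Most initiation factor genes gave higher signal in the leukaemias, and the genes of eIF3 did so together. Signal is given as log2 of the intensity plus a constant, with every array shifted to a common median, and a difference is the mean of the 5 cohorts minus the mean of the 4 normal samples. The limma fit over 13333 genes called 22 of the 40 genes higher and 1 lower at an adjusted p under 0.05. The higher calls were 55.0% of these genes against 29.1% of all genes tested, and the lower call was 2.50% against 12.8%. Of the 40 genes, 37 had a difference above 0, where 63.0% of all genes did. The median difference of the 40 genes was 0.44 against 0.16 for all genes. By factor, all 11 eIF3 genes rose, 4 of 7 start codon and ternary complex genes, 2 of 5 eIF2B genes, 3 of 9 eIF4 cap-binding and helicase genes, 0 of 3 eIF4E inhibitors, Eif6 and Eif5a, while Eif5 fell. All 34 leukaemias lay above all 4 normal samples for 6 of the 40 genes (15.0%, against 4.85% of all genes): Eif2a, Eif2b2, Eif3e, Eif3f, Eif3h and Eif3m. They lay below all normal samples for Eif5 (4.08% of all genes did so).

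**Figure D1:**
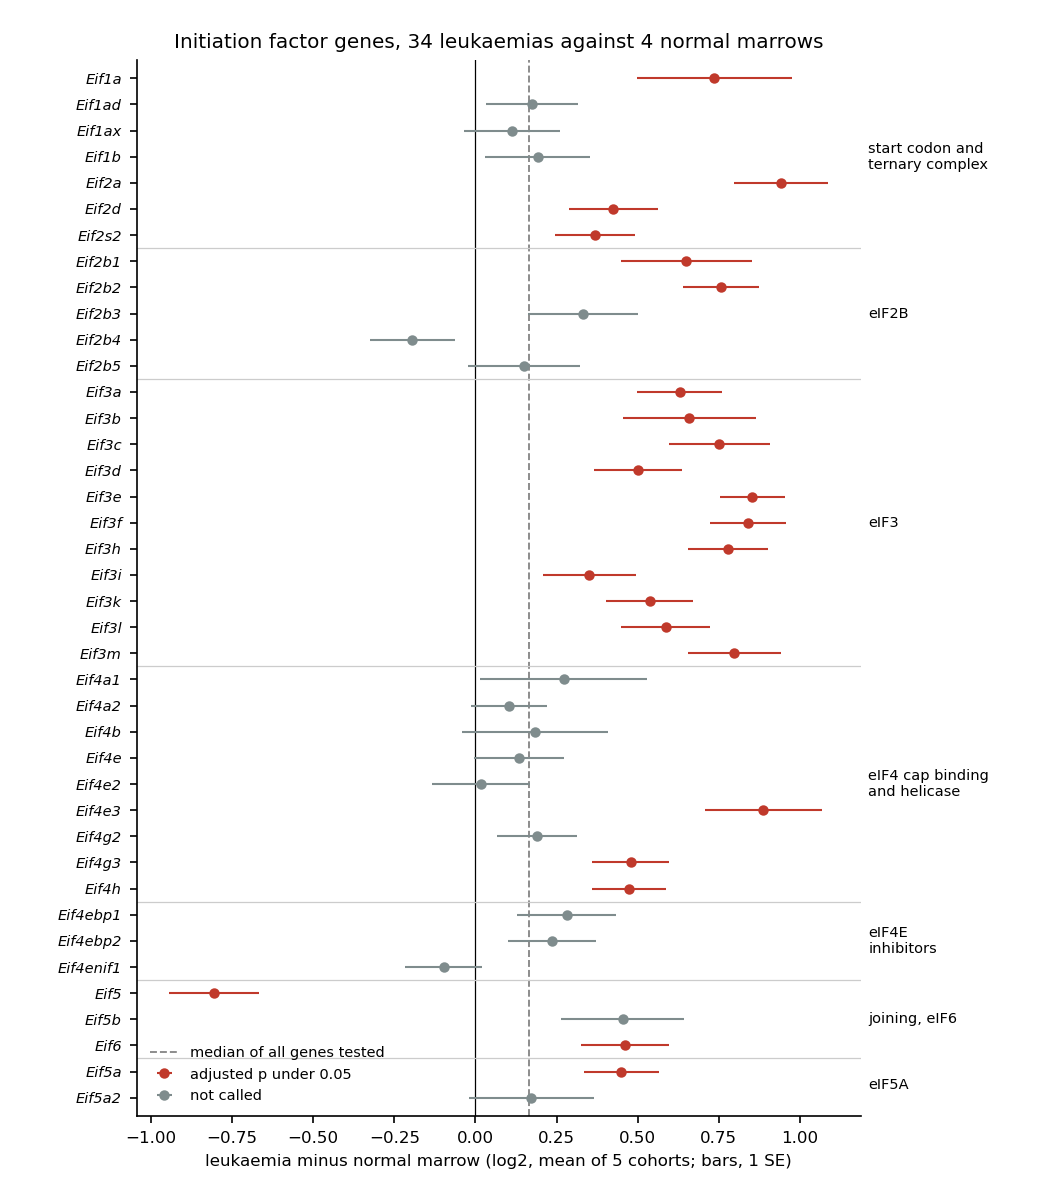
Difference between the leukaemias (mean of 5 cohorts, 34 mice) and 4 normal marrows on the log2 scale for each of the 40 genes that passed the filter, grouped by factor, with bars of 1 SE and the median of all genes (0.16) as a dashed line. All 11 eIF3 genes lie right of the dashed line, and Eif5 at -0.80 stands alone on the left.

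How far the genes rose depended on the scaling of the arrays. The median difference of all genes was 0.16 with arrays shifted to a common median, 0.04 on the unshifted deposited scale and 0.09 when arrays were quantile normalized. The 40 genes lay 0.27, 0.27 and 0.14 above these medians, and the eIF3 genes 0.50, 0.50 and 0.38 above them. The share of higher calls among all called genes was 69.4%, 57% and 60.5%, and the initiation factor genes with a difference above 0 numbered 37, 34 and 29. Of all genes, 63.0% had a difference above 0 with arrays shifted to a common median. That share was not taken under the other scalings. Every eIF3 gene stayed above 0 under all 3 scalings.

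Cell makeup moved with the leukaemia comparison in these whole-marrow samples, where fewer cells of a type and less RNA per cell cannot be told apart. All 9 measured erythroid markers fell (median -6.11), and their summed linear signal was 101905 to 140625 in normal marrow and 2187 to 5229 in the leukaemias. B cell markers (9 of 9 measured) and T and NK cell markers (7 of 7) fell with medians of -3.33 and -1.24, and 5 of 6 megakaryocyte and 5 of 7 late neutrophil markers fell with medians of -2.78 and -2.49. Their sums ran from 11121 to 23418, 4170 to 6107, 18463 to 30102 and 125986 to 202739 in normal marrow, and from 1855 to 5414, 935 to 5281, 1297 to 2255 and 10926 to 212645 in the leukaemias. All 8 monocyte markers rose (median 1.48), with sums of 19575 to 31764 in normal and 37957 to 122566 in leukaemic marrow. The log2 ratio of the 3' to the 5' actin control probe sets, a sign of RNA quality, was 0.07 to 0.22 on the normal arrays and 0.15 to 0.65 on the leukaemia arrays. The same ratio for Gapdh was -0.35 to -0.12 on the normal arrays, within the -0.47 to -0.04 of the leukaemia arrays. Arrays also fell into 2 sets by 5 probe sets: 16 leukaemias formed the first, and 18 leukaemias with all 4 normal samples the second. On 5 arrays, of which MLL-GAS7_407, MLL-GAS7_410 and normal sample 3 were 3, hybridisation controls were bright. The part of these measures in the differences was not tested. Within the second set 22 of the 40 genes were again called higher, where 30.2% of all genes were. Of these, 20 were among the 22 above, while Eif2s2 and Eif3i lost their calls and Eif4b and Eif5b gained them. With the bright arrays left out there were also 22, where 28.8% of all genes were called higher. Of these, 21 were shared, while Eif3i lost its call and Eif5b gained it.

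The eIF3 genes gave the most uniform response. Of the core and peripheral subunits measured, Eif3e had a difference of 0.85 ± 0.10 (SE; 1.81-fold, adjusted p = 8.6e-09 by limma). Eif3e gave 12.91, 12.76, 12.63 and 12.79 log2 units in normal samples 1 to 4. The lowest, median and highest values of Eif3e were 13.45, 13.62 and 13.97 in the MLL-AF1p cohort, 13.27, 13.50 and 13.66 in the MLL-AF10 cohort and 13.63, 13.72 and 13.90 in the MLL-ENL cohort. MLL-GAS7 leukaemias gave Eif3e at 13.40, 13.51, 13.58, 13.64 and 13.80, and MLL-AF9 leukaemias gave it at 13.35, 13.64, 13.66, 13.74 and 13.82. The highest normal sample lay below the lowest leukaemia, an MLL-AF10 mouse, and the 5 cohorts overlapped each other. For Eif3f the difference was 0.84 ± 0.12 (1.79-fold, adjusted p = 2.7e-07), from 13.03, 13.37, 13.37 and 13.45 in the normal samples. Eif3f had a lowest, median and highest value of 13.72, 14.11 and 14.56 in the MLL-AF1p cohort, 13.84, 14.13 and 14.32 in the MLL-AF10 cohort and 14.10, 14.15 and 14.31 in the MLL-ENL cohort. MLL-GAS7 leukaemias gave Eif3f at 13.93, 14.03, 14.25, 14.25 and 14.31, and MLL-AF9 leukaemias gave it at 13.99, 14.03, 14.20, 14.27 and 14.36. Normal sample 1 was the lowest, and again no leukaemia reached down to the normal range. Eif3h, whose normal values lay within 12.22 to 12.28, rose by 0.78 ± 0.12 (adjusted p = 3.0e-06), and its leukaemias ran from 12.54 to 13.39. Eif3m rose by 0.80 ± 0.14 (adjusted p = 2.2e-05), with normal values of 10.86, 10.76, 10.44 and 10.77 and leukaemias between 10.96 and 12.03. Its other, dimmer probe set gave 0.44 and was not called. Both carry a suffix that marks probes which may match other sequences, and without such probe sets Eif3m was not measured.

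The remaining subunit genes overlapped with normal marrow in some mice. Eif3c, a core subunit, rose by 0.75 ± 0.16, with 33 of 34 leukaemias above all normal samples; the exception was mouse MLL-GAS7_407 at 11.84. Eif3a, the largest core subunit, rose by 0.63 ± 0.13 and Eif3k, a small peripheral one, by 0.54 ± 0.13, each with 32 leukaemias above the normal range. Eif3l rose by 0.59 ± 0.14 with 31 and Eif3b, the core subunit that binds Eif3i, by 0.66 ± 0.21 with 29. The adjusted p of these 5 genes ran from 1.6e-04 for Eif3c to 0.00899 for Eif3b, and Eif3b lost its call without normal sample 3 (0.58, adjusted p = 0.0526). Eif3d, a subunit that itself can bind the cap, rose by 0.50 ± 0.14 (adjusted p = 0.00314), with normal sample 1 at 12.13 and the other normal samples between 11.66 and 11.71. Eif3i was the weakest, at 0.35 ± 0.14 (adjusted p = 0.0461), and 23 leukaemias lay above the normal range. In the limma fit over single probe sets neither of its probe sets was called (0.35 and 0.42, adjusted p = 0.0545 and 0.0777). The gene call of Eif3i was lost in 21 of the 38 fits that left out 1 array, among them those without normal samples 2, 3 or 4 (0.35, 0.23 and 0.39), and in 6 of 10 alternatives, where its difference ran from 0.08 to 0.39.

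**Figure D2:**
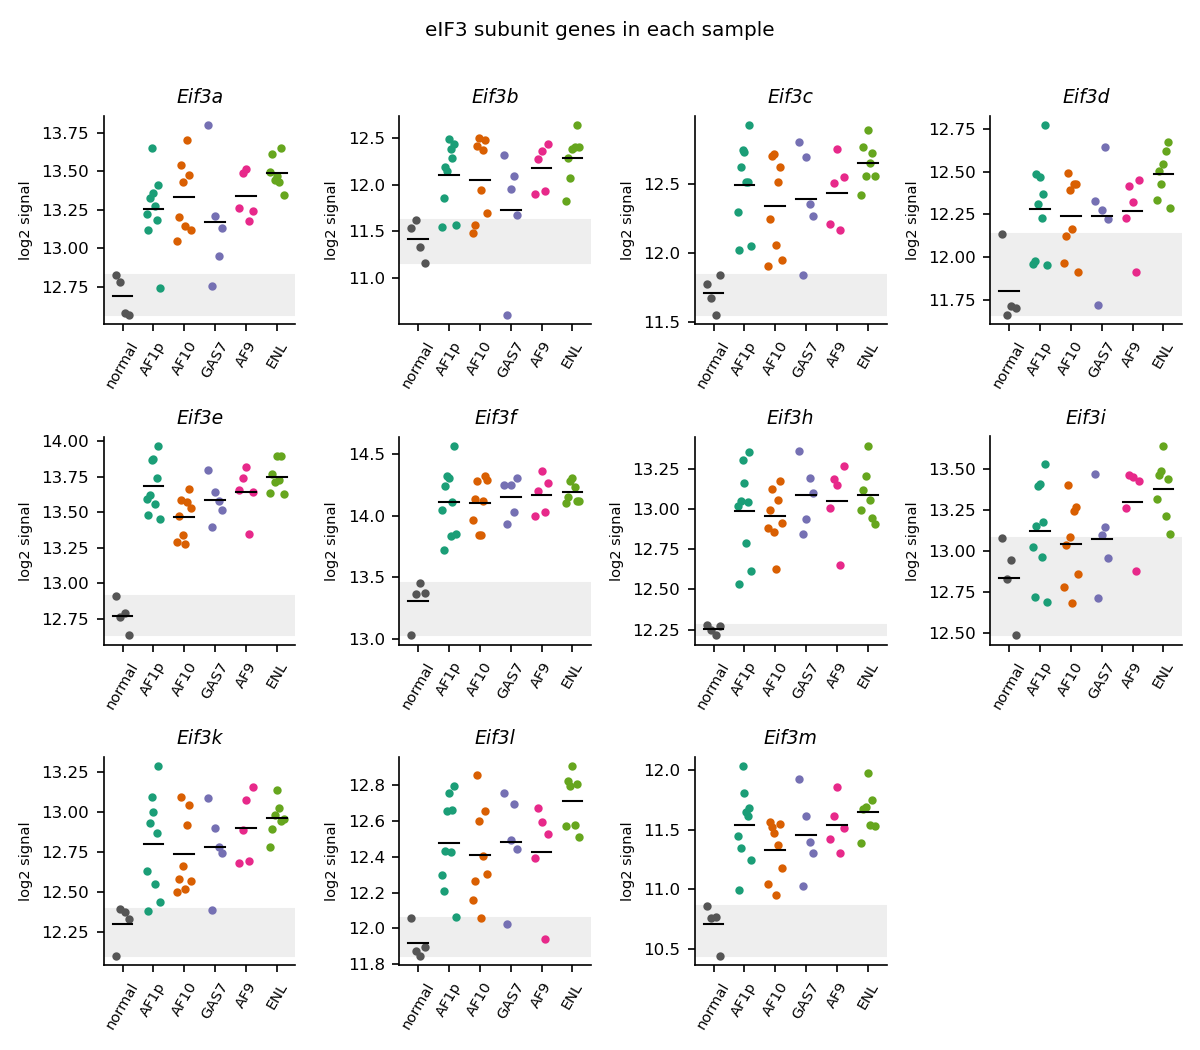
Log2 signal of the 11 eIF3 subunit genes in each mouse, 1 point per array, by group (4 normal, 9 MLL-AF1p, 8 MLL-AF10, 5 MLL-GAS7, 5 MLL-AF9, 7 MLL-ENL), with the group mean as a line and the normal range shaded; each vertical axis has its own range. No leukaemia enters the shaded range for Eif3e, Eif3f, Eif3h or Eif3m, while 11 of 34 do for Eif3i.

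Promoters are shown for an eIF3 gene with a pair of CCGGAAG matches, an eIF3 gene above normal in every leukaemia, the cap-binding gene and the gene that fell, as the 150 bases before a RefSeq start site on GRCm38.p6. Capitals mark CACGTG, the E-box bound by Myc and its relatives, and CCGGAAG on either strand (read as CTTCCGG on the printed strand), a core bound by ETS factors.
Eif3c (chr7:126566367-126566516, minus strand): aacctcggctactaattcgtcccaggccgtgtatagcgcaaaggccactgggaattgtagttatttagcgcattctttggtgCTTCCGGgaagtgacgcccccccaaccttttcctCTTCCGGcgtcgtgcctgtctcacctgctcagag
Eif3f (chr7:108934265-108934414, plus strand): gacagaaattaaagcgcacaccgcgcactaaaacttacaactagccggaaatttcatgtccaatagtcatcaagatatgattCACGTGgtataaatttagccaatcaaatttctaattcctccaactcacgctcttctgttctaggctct
Eif4e (chr3:138527118-138527267, plus strand): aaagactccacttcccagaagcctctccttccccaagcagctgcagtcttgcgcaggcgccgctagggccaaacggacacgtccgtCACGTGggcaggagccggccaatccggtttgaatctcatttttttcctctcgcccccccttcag
Eif5 (chr12:111537951-111538100, plus strand): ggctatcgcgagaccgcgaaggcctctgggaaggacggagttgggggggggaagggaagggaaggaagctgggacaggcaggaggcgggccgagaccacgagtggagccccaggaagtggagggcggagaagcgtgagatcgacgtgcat
The 2 capital runs of Eif3c began 68 and 34 bases before the start, the E-box of Eif3f 68 bases and the marked E-box of Eif4e 64 bases before it. The 250 bases before this Eif4e start held 2 CACGTG matches, and the printed stretch reaches only the marked match. Where a gene had several start sites, the one with most CACGTG matches was printed. Eif4e had another start site, and the 250 bases before that one held neither motif. RefSeq promoters were matched by symbol for 32 of the 41 genes (44 start sites). In the 250 bases before a start, CACGTG was in a promoter of 8 of the 32 genes (25%, against 6.86% of 27025 genes), and CCGGAAG in 11 (34.4%, against 7.83%). The 27025 genes were all those with a RefSeq promoter, whether or not they passed the filter on dim signal. Among genes that rose 4 and 5 of 16 held them, and among genes not called 4 and 6 of 14. Of the 8 eIF3 genes with a promoter, 2 held CACGTG (Eif3f and Eif3k) and 4 held CCGGAAG (Eif3c, Eif3d, Eif3l and Eif3m). The printed stretch of Eif5 held neither motif. These matches describe letters in the windows; the arrays measured no binding.

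Among the genes of the ternary complex and the start codon, Eif2a rose most. Despite its symbol it does not encode the alpha subunit of eIF2 but a separate protein that can deliver initiator tRNA without GTP. Eif2a gave 9.19, 9.40, 8.91 and 9.31 in normal samples 1 to 4. The lowest, median and highest values of Eif2a were 9.94, 10.13 and 10.68 in the MLL-AF1p cohort, 9.84, 10.09 and 10.50 in the MLL-AF10 cohort and 9.96, 10.24 and 10.57 in the MLL-ENL cohort. MLL-GAS7 leukaemias gave Eif2a at 9.81, 10.01, 10.04, 10.23 and 10.36, and MLL-AF9 leukaemias gave it at 9.43, 10.09, 10.09, 10.29 and 10.57. All leukaemias lay above the highest normal sample, and mouse MLL-AF9_305 came nearest to it. The difference was 0.94 ± 0.14 (1.92-fold, adjusted p = 1.8e-06). Its other probe set gave 0.43 and was not called. Eif1a, one of the genes of eIF1A, rose by 0.74 ± 0.24 (adjusted p = 0.0117), with 27 leukaemias above the normal range, and lost its call without normal sample 1 (0.66, adjusted p = 0.0555) or 4 (0.68, adjusted p = 0.0513). Its near-identical X-linked copy Eif1ax was not called, at 0.11 ± 0.15, so how the probes share the signal of the pair is uncertain. Eif2d, which can also deliver tRNA and act on post-termination ribosomes, rose by 0.42 ± 0.14 (adjusted p = 0.0116). It lost its call without normal sample 3 (0.36) or 4 (0.38). Eif2s2, the beta subunit of eIF2, rose by 0.37 ± 0.12 (adjusted p = 0.0153), a call lost without normal sample 2, 3 or 4 (0.33, 0.35 and 0.31), on the deposited scale (0.24), after quantile normalization (0.13) and within the second array set (0.30). Eif1b, a gene of eIF1, and Eif1ad were not called, at 0.19 ± 0.16 and 0.18 ± 0.14.

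The eIF2B genes split. Eif2b2, the beta subunit of the regulatory part of eIF2B, gave 10.76, 10.61, 10.75 and 10.77 in normal samples 1 to 4, and every leukaemia was between 11.01 and 12.08, above that range. Its difference was 0.76 ± 0.12 (adjusted p = 2.0e-06). This rests on 1 of 3 probe sets, with a suffix that marks probes which may match other sequences; the others gave 0.14 and 0.18 and were not called, and without such probe sets the gene stood at 0.18 (adjusted p = 0.428). Eif2b1, the alpha subunit, through which phosphorylated eIF2 inhibits the exchange, rose by 0.65 ± 0.20 (adjusted p = 0.0088), and lost its call without normal sample 4 (0.51, adjusted p = 0.081). The subunits of the catalytic part were not called: Eif2b3 (gamma) stood at 0.33 ± 0.17, called without mouse MLL-GAS7_407 (0.37, adjusted p = 0.0492), and Eif2b5 (epsilon), which holds the exchange activity, at 0.15 ± 0.17. Eif2b4, the delta subunit of the regulatory part, stood at -0.19 ± 0.13 (adjusted p = 0.247), and was called lower at -0.32 on the deposited scale and also when quantile normalized.

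The cap-binding gene Eif4e, which is commonly limiting for cap-dependent translation, was not called over all leukaemias, at 0.14 ± 0.14 (adjusted p = 0.464), and none of its 4 probe sets was. Eif4e gave 11.83, 11.55, 11.54 and 11.54 in normal samples 1 to 4. Eif4e had a lowest, median and highest value of 11.54, 11.91 and 12.12 in the MLL-AF1p cohort, 11.18, 11.59 and 11.88 in the MLL-AF10 cohort and 11.85, 12.09 and 12.28 in the MLL-ENL cohort. MLL-GAS7 leukaemias gave Eif4e at 10.92, 11.46, 11.56, 11.74 and 12.04, and MLL-AF9 leukaemias gave it at 11.21, 11.73, 11.83, 11.94 and 11.95. Normal marrow lay within the span of 4 of the cohorts, and the MLL-ENL mice lay above it. Its relative Eif4e3, an atypical member of the cap-binding family, rose by 0.89 ± 0.18 (1.85-fold, adjusted p = 1.2e-04), and both of its probe sets were called higher. Eif4e3 was at 10.19, 10.30, 10.62 and 9.87 in the normal samples. The lowest, median and highest values of Eif4e3 were 10.31, 10.90 and 11.37 in the MLL-AF1p cohort, 11.17, 11.26 and 11.62 in the MLL-AF10 cohort and 11.06, 11.40 and 11.64 in the MLL-ENL cohort. MLL-GAS7 leukaemias gave Eif4e3 at 9.93, 10.85, 11.26, 11.41 and 11.58, and MLL-AF9 leukaemias gave it at 10.79, 10.92, 10.98, 11.16 and 11.39. mouse MLL-GAS7_407 and 2 MLL-AF1p mice fell within the normal range, and the other 31 leukaemias above it. Eif4e2, which binds caps and represses translation, stood at 0.02 ± 0.15. Another of its 5 probe sets was called higher at 0.76 ± 0.17, and their mean stood at 0.24 and was not called.

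By their brightest probe sets the helicase genes were not called: Eif4a1 stood at 0.27 ± 0.26 and Eif4a2 at 0.10 ± 0.12. Of the other probe sets of Eif4a1, 1 was called higher at 0.57 ± 0.14 and 1 was not called at 0.12 ± 0.32. Of the helicase cofactors, Eif4h rose by 0.47 ± 0.11 (adjusted p = 9.1e-04) with all 5 probe sets called higher. Eif4b stood at 0.18 ± 0.22 and was called only with the array set as a term (0.50) or within the second set (0.47), while another of its 3 probe sets was called higher at 0.55 ± 0.13. Of the scaffold genes measured, Eif4g3 rose by 0.48 ± 0.12 (adjusted p = 0.00128 by limma). Eif4g2, whose product lacks the Eif4e-binding site, stood at 0.19 ± 0.12, and Eif4g1 was not among the genes. The signs of Eif4a1, Eif4a2, Eif4b, Eif4e, Eif4e2 and Eif4g2 turned after quantile normalization, and those of Eif4a2 and Eif4e2 also with the values as deposited.

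None of the 3 genes that restrain eIF4E was called by limma in the leukaemia comparison; at an unadjusted p under 0.05 there were 0 as well. Eif4ebp1 stood at 0.28 ± 0.15, and at 0.53 and called without probe sets that may match other sequences. Eif4ebp2 stood at 0.24 ± 0.14, and Eif4enif1, which carries eIF4E into the nucleus and represses messengers, at -0.10 ± 0.12. The probe sets of Eif4ebp2 disagreed: 1 was higher at 0.44 and 1 lower at -0.67. Around them, 4 of 15 measured genes of mTORC1 signalling and eIF4E control rose and 2 fell (median 0.08), where 29.1% and 12.8% of all genes were called higher and lower. Pdcd4, which blocks the helicase eIF4A, rose by 1.65 ± 0.17 (adjusted p = 4.9e-10) and every one of 34 leukaemias exceeded the normal range. Larp1, which binds messengers of the translation machinery, rose by 0.78 ± 0.13 and Rheb, the small GTPase that switches on mTORC1, by 0.56 ± 0.14. Cyfip2, a partner of Fmr1, fell by 0.95 ± 0.28 on the log2 scale.

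Eif5, the protein that makes eIF2 hydrolyse its GTP at the start codon, was the gene that fell. Eif5 gave 13.53, 13.67, 13.31 and 13.48 in normal samples 1 to 4. Eif5 had a lowest, median and highest value of 12.15, 12.92 and 13.09 in the MLL-AF1p cohort, 12.30, 12.46 and 13.04 in the MLL-AF10 cohort and 12.55, 12.84 and 13.08 in the MLL-ENL cohort. MLL-GAS7 leukaemias gave Eif5 at 12.06, 12.46, 12.55, 12.63 and 12.87, and MLL-AF9 leukaemias gave it at 12.68, 12.74, 12.74, 12.80 and 13.07. The highest leukaemia lay below the lowest normal sample. The difference was -0.80 ± 0.14 (1.75-fold lower, adjusted p = 1.1e-05), and it was called in each of the 5 cohorts. The probe sets of this gene did not move together: 2 were lower (-0.80 and -0.97), 2 were not called (-0.23 and -0.11) and 1 was higher (0.42). As the mean of its 5 probe sets, Eif5 fell by 0.34 and was still called. The large-subunit joining GTPase Eif5b stood at 0.45 ± 0.19 (adjusted p = 0.0529) and was called in 6 of 10 alternatives. Eif6, which keeps the large subunit from joining too early, rose by 0.46 ± 0.14 (adjusted p = 0.00588), with 30 leukaemias above the normal range, and was not called as the mean of its probe sets (0.28, adjusted p = 0.0891).

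Eif5a, which carries the amino acid hypusine and helps the ribosome through difficult stretches, rose by 0.45 ± 0.12 (adjusted p = 0.00181), although its difference was -0.03 after quantile normalization. Both probe sets of Eif5a were called higher, but both may match other sequences, and without such probe sets Eif5a was not measured. Its tissue-restricted copy Eif5a2 stood at 0.17 ± 0.19. Of the enzymes that make hypusine, Dhps rose by 0.52 ± 0.15 (adjusted p = 0.0049); Dohh is named here after its value was seen and stood at 0.04 ± 0.27.

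**Figure D3:**
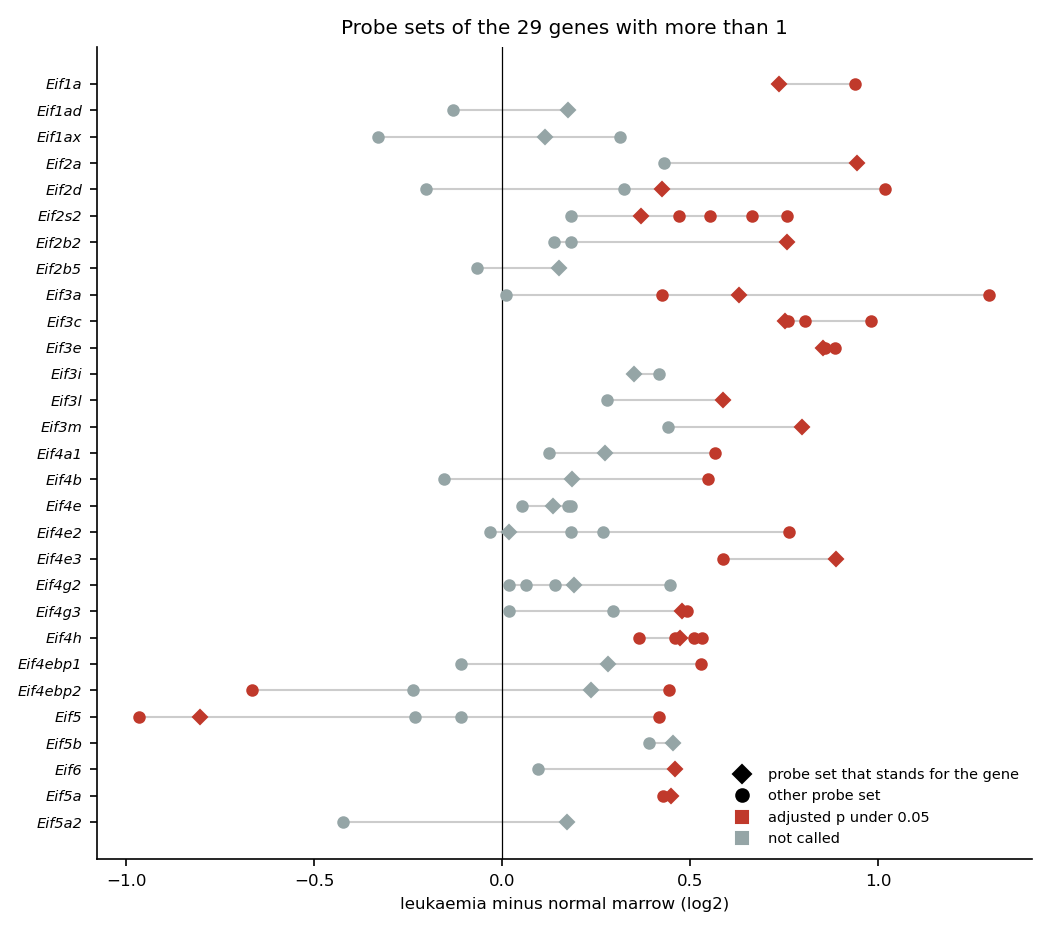
Difference between the leukaemias and normal marrow (log2) for each probe set of the 29 genes with more than 1, with the probe set of highest mean signal as a diamond and called probe sets in red. Eif3c, Eif3e and Eif4h have all probe sets called on the same side, while those of Eif5 run from -0.97 to 0.42 and those of Eif4ebp2 from -0.67 to 0.44.

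Counted over single probe sets, 47 of 103 were called higher (45.6%, against 24.9% of all probe sets) and 3 lower (2.91%, against 12.1%). The 3 lower ones belong to Eif5 and Eif4ebp2. By gene, 11 had a single probe set, 6 had all probe sets called the same way, 8 had none called, 13 were mixed and 2 held calls in opposite directions. The widest span among genes that rose was that of Eif3a, from 0.01 to 1.30 over 4 probe sets, followed by Eif2d from -0.20 to 1.02.

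Taken cohort by cohort, the leukaemias were compared with the 4 normal samples, which every such comparison shares. MLL-ENL marrow had 27 of the 40 genes higher and 1 lower (30.3% and 11.1% of all genes were), and MLL-AF1p marrow 22 and 2 (24.2% and 12.3%). MLL-AF10 marrow had 18 higher and 1 lower (24.8% and 11.8%), MLL-AF9 marrow 18 and 1 (23.7% and 9.86%) and MLL-GAS7 marrow 12 and 1 (16.7% and 10.4%). Within the second array set the higher genes numbered 8 in MLL-AF9 marrow, where 2 mice remained, against 23 in MLL-ENL, 21 in MLL-AF1p, 21 in MLL-AF10 and 12 in MLL-GAS7 marrow. With the bright arrays left out they were 15 in MLL-AF9, 14 in MLL-GAS7, 27 in MLL-ENL, 21 in MLL-AF1p and 19 in MLL-AF10 marrow. The shares of all genes called by cohort in these refits were not taken, so these counts have no background here. With all arrays kept, the median difference of the 40 genes was 0.54 for MLL-ENL marrow, against 0.23 for all genes. MLL-AF1p marrow had medians of 0.48 against 0.14, and MLL-AF10 marrow 0.42 against 0.15. MLL-AF9 marrow had 0.43 against 0.19, and MLL-GAS7 marrow 0.29 against 0.11. The eIF3 genes called higher numbered 11 in MLL-ENL and in MLL-AF9 marrow, 10 in both MLL-AF1p and MLL-AF10 marrow and 8 in MLL-GAS7 marrow, where Eif3b (0.32 ± 0.26), Eif3d (0.44 ± 0.17) and Eif3i (0.24 ± 0.18) were not called. For Eif3b, MLL-GAS7_407, a bright array, lay at 10.60, below every normal sample. The other MLL-GAS7 mice ran from 11.68 to 12.32, above every normal sample. Genes called higher in each of the 5 cohorts were Eif2a, Eif2b2, Eif3a, Eif3c, Eif3e, Eif3f, Eif3h, Eif3k, Eif3l, Eif3m, Eif4e3 and Eif4h. The share of all genes called higher in each of the 5 was not taken, so this list has no background here. The largest single difference was that of Eif1a in MLL-ENL marrow, 1.17 ± 0.28 (adjusted p = 9.1e-04). Eif2b3, Eif4ebp1, Eif4e, Eif1b and Eif5b were among the genes called higher in MLL-ENL marrow. Set against the other 4 cohorts, MLL-ENL marrow was called for Eif4e and Eif1b but not for Eif2b3 (0.20, adjusted p = 0.400), Eif4ebp1 (0.26, adjusted p = 0.217) or Eif5b (0.38, adjusted p = 0.136).

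**Figure D4:**
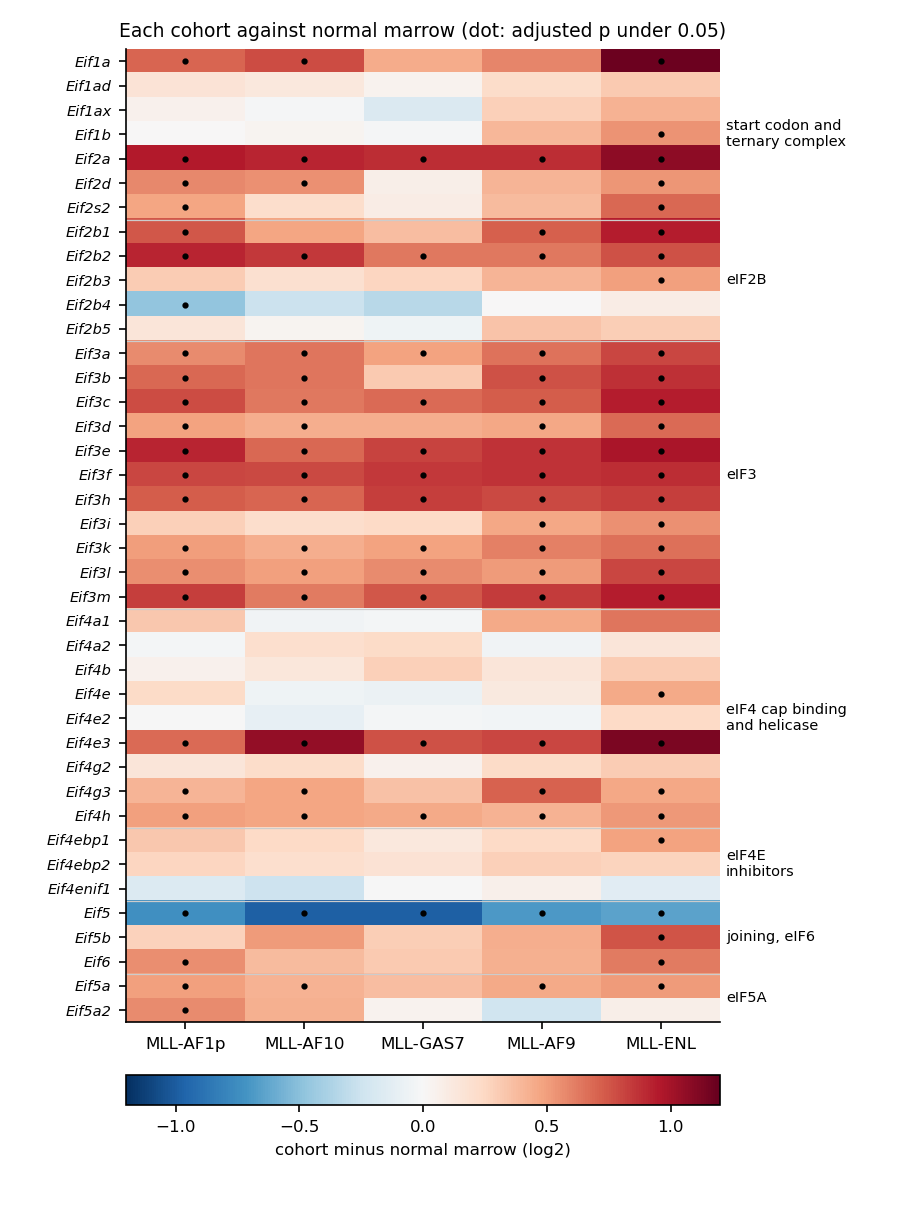
Difference of each cohort from the 4 normal marrows (log2, colour) for the 40 genes, with a dot where the adjusted p was under 0.05. The eIF3 rows carry 50 of 55 possible dots, and the Eif5 row is blue with a dot in all 5 columns.

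In the test among the cohorts, these genes were called at a share near that of all genes. An F test among the 5 cohorts called 4 of 40 (10%, against 8.09% of all genes), and against the other 4 cohorts together limma called 4 genes in MLL-ENL (4.97% of all genes), 1 in MLL-AF1p (2.33%), 1 in MLL-GAS7 (4.78%), 0 in MLL-AF10 (0.308%) and 0 in MLL-AF9 (0.368%). At an unadjusted p under 0.05 the numbers were 16, 3, 4, 5 and 2. The shares of all genes at this unadjusted threshold were not taken, so these numbers have no background here. Of the 40 genes, 37 were higher in MLL-ENL than in the mean of the others, where 65.1% of all genes were. Eif2s2 had the lowest adjusted p of the F test (0.0129), and lost this call as the mean of its probe sets (0.0714), with the bright arrays left out (0.0696) and within the second array set (0.177). Eif2s2 gave 12.69, 12.24, 12.31 and 12.20 in normal samples 1 to 4. The lowest, median and highest values of Eif2s2 were 12.62, 12.78 and 13.15 in the MLL-AF1p cohort, 12.30, 12.55 and 12.76 in the MLL-AF10 cohort and 12.78, 13.09 and 13.22 in the MLL-ENL cohort. MLL-GAS7 leukaemias gave Eif2s2 at 12.23, 12.27, 12.33, 12.49 and 12.92, and MLL-AF9 leukaemias gave it at 12.24, 12.72, 12.73, 12.94 and 13.05. MLL-ENL mice were high and MLL-GAS7 mice low apart from MLL-GAS7_406, and the cohorts overlapped. MLL-ENL marrow was 0.40 ± 0.10 above the other cohorts (adjusted p = 0.0149), a call kept in all 38 fits that left out 1 array and lost within the second array set (0.39, adjusted p = 0.232). Eif2b4 (F test, adjusted p = 0.0148) was 0.36 ± 0.11 from the others in MLL-ENL (adjusted p = 0.0434) and -0.35 ± 0.10 from them in MLL-AF1p marrow (adjusted p = 0.0464). With 1 array left out, the F test call of Eif2b4 was kept in all 38 fits, but its MLL-AF1p call was lost in 29 (differences from -0.40 to -0.30, adjusted p up to 0.117) and its MLL-ENL call in 16 (0.32 to 0.39, up to 0.0994). Of 10 alternatives, these calls were kept in 9, 7 and 5. Eif2b4 gave 10.06, 10.07, 9.78 and 9.90 in the normal samples. Eif2b4 had a lowest, median and highest value of 9.12, 9.37 and 9.88 in the MLL-AF1p cohort, 9.37, 9.75 and 10.01 in the MLL-AF10 cohort and 9.82, 10.04 and 10.25 in the MLL-ENL cohort. MLL-GAS7 leukaemias gave Eif2b4 at 9.20, 9.57, 9.61, 9.84 and 9.87, and MLL-AF9 leukaemias gave it at 9.50, 9.90, 10.08, 10.09 and 10.21. Of the 9 MLL-AF1p mice none reached above the normal range, and the MLL-ENL mice lay within or above it.

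Eif5a2 (F test, adjusted p = 0.0316) gave 7.72, 7.94, 7.44 and 7.92 in normal samples 1 to 4. The lowest, median and highest values of Eif5a2 were 7.76, 8.24 and 8.84 in the MLL-AF1p cohort, 7.79, 8.23 and 8.48 in the MLL-AF10 cohort and 7.38, 7.87 and 8.18 in the MLL-ENL cohort. MLL-GAS7 leukaemias gave Eif5a2 at 7.50, 7.51, 7.82, 7.98 and 8.17, and MLL-AF9 leukaemias gave it at 6.49, 7.18, 7.57, 7.98 and 8.36. MLL-AF1p and MLL-AF10 mice were the higher ones and mouse MLL-AF9_308 the lowest, and no single cohort differed from the others after adjustment (MLL-AF1p 0.49 ± 0.14, adjusted p = 0.0601). Eif1b (F test, adjusted p = 0.046) ran from 10.81 to 11.24 in the normal samples, with sample 2 the highest and sample 4 the lowest. Eif1b had a lowest, median and highest value of 10.49, 11.04 and 11.46 in the MLL-AF1p cohort, 10.58, 11.05 and 11.26 in the MLL-AF10 cohort and 11.18, 11.50 and 11.93 in the MLL-ENL cohort. MLL-GAS7 leukaemias gave Eif1b at 10.64, 10.82, 10.86, 10.89 and 11.74, and MLL-AF9 leukaemias gave it at 11.07, 11.30, 11.39, 11.60 and 11.61. The MLL-ENL and MLL-AF9 mice were high, together with mouse MLL-GAS7_406. MLL-ENL marrow was 0.43 ± 0.13 above the others for Eif1b (adjusted p = 0.0448) and 0.40 ± 0.11 for Eif4e (adjusted p = 0.0332). With 1 array left out, the F test call of Eif1b was lost in 27 of 38 fits (adjusted p up to 0.109) and its MLL-ENL call in 19 (0.37 to 0.49, adjusted p up to 0.144), and each was kept in 6 of 10 alternatives, while the F test call of Eif5a2 was lost in 4, without MLL-AF1p_810, MLL-AF1p_806, MLL-AF9_308 or MLL-AF9_310. The Eif4e call was lost without mouse MLL-ENL_760, MLL-ENL_702, MLL-ENL_741, MLL-ENL_703 or MLL-ENL_742 (0.36 to 0.41). It was also lost as the mean of its probe sets (0.23, adjusted p = 0.104), after quantile normalization (0.27, adjusted p = 0.0785), with the bright arrays left out (0.32, adjusted p = 0.0625) and within the second set (0.43, adjusted p = 0.205). Eif2d in MLL-GAS7 marrow was -0.45 ± 0.13 from the others (adjusted p = 0.0312). This rested on mouse MLL-GAS7_407 at 8.78, a bright array, and the call was lost without it (-0.22, adjusted p = 0.34) or without MLL-GAS7_408 (-0.43, adjusted p = 0.0835), and in 4 of 10 alternatives. Within the second array set, with 18 leukaemias, limma called 0 genes in the F test and 0 in each cohort against the others; at an unadjusted p under 0.05 the F test gave 4 and MLL-ENL 6. With the bright arrays left out the F test called 2 genes. For the F test and the cohort contrasts, shares of all genes were not taken in these refits, nor at the unadjusted threshold.

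**Figure D5:**
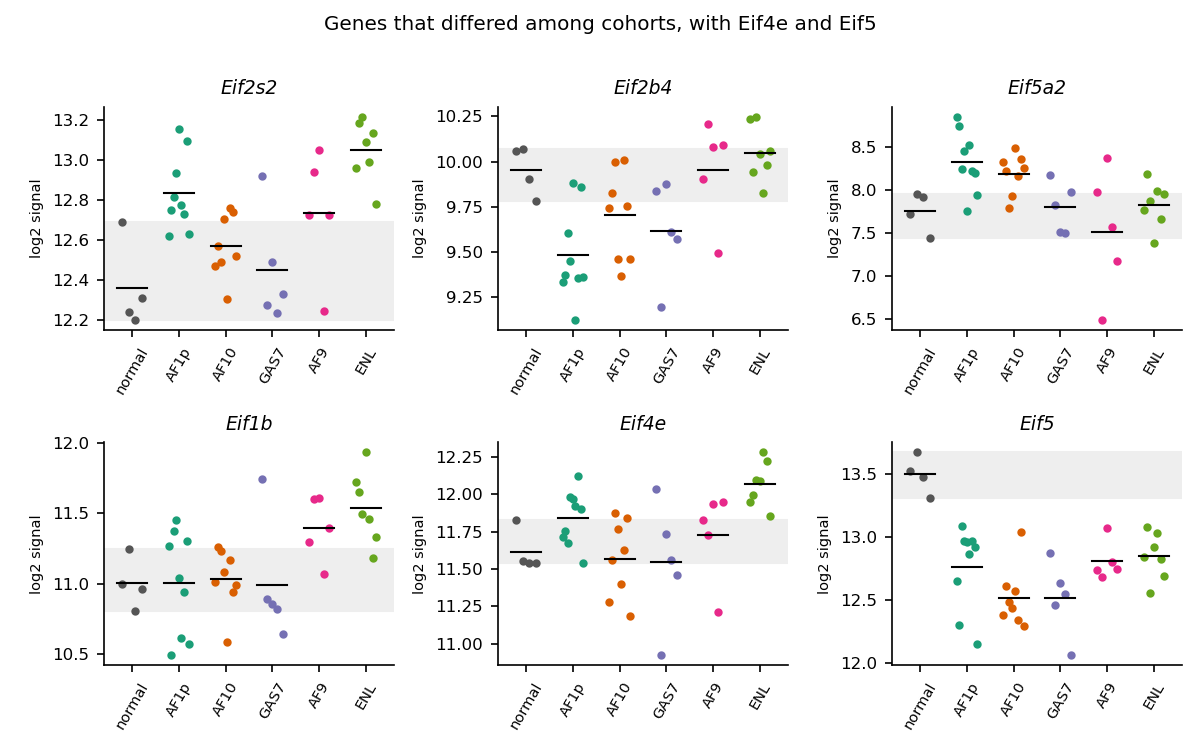
Log2 signal in each mouse by group for the 4 genes called by the F test among cohorts and for Eif4e and Eif5, with group means as lines and the normal range shaded; each vertical axis has its own range. The MLL-ENL points sit high for Eif2s2, Eif1b and Eif4e, and all leukaemias sit under the shaded range for Eif5.

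The kinases and phosphatase subunits that act on eIF2 moved in both directions, 2 of 10 measured genes of eIF2 stress signalling higher and 3 lower (median -0.08; 29.1% and 12.8% of all genes were called higher and lower). Ppp1r15a, the inducible subunit that dephosphorylates eIF2 alpha, fell by 4.13 ± 0.20 on the log2 scale (adjusted p = 3.1e-19) and was below all normal samples in 34 of 34 leukaemias. Eif2ak1, the haem-regulated kinase of erythroid cells, fell by 1.17 ± 0.16 (adjusted p = 2.7e-07), likewise in 34 of 34, beside the erythroid markers with a median of -6.11; their part in it was not tested. Ddit3, a stress-induced transcription factor, fell by 0.75 ± 0.20. Eif2ak4, the amino acid sensor, rose by 0.69 ± 0.20 and Eif2ak2, the kinase activated by double-stranded RNA, by 0.48 ± 0.17. Eif2ak3, the kinase of the endoplasmic reticulum, stood at 0.0014 ± 0.11 and Atf4, the transcription factor whose translation rises when eIF2 is phosphorylated, at -0.29 ± 0.17.

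Of 13 partners of initiation, 6 rose and 1 fell (median 0.41), against 29.1% and 12.8% of all genes and an all-gene median of 0.16. Mtif3, an initiation factor of mitochondria, rose by 1.82 ± 0.30 (adjusted p = 5.8e-06), and Mcts1, which works with Denr on post-termination ribosomes and in reinitiation, by 1.03 ± 0.14 (adjusted p = 2.4e-07). Dap rose by 0.73 ± 0.16. Pabpc4, a poly(A)-binding protein, fell by 1.11 ± 0.22 (adjusted p = 7.2e-05). Of 13 measured elongation and release factors, 6 rose and limma called 0 lower (median 0.36), and 0 were lower at an unadjusted p under 0.05, beside the same 29.1% and 12.8%. Tufm, the mitochondrial elongation factor, rose by 0.81 ± 0.22, Eef1b2, which reloads eEF1A with GTP, by 0.61 ± 0.14 and Eef1a1, the tRNA carrier, by 0.46 ± 0.13.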

How the data were processed

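Signal intensities on a linear scale were deposited by the authors in 1 table for 38 arrays (Affymetrix biotin label, 1 colour, per the labels). With 2% of values cut from either tail, each array had a mean of 500.0, so the values were scaled before deposit by software not given in the sources used here. Arrays hold no counts, and precision is limited by the number of arrays; nothing in the labels names a batch, and mice are taken as separate animals from their numbers. No 2 arrays held identical values.

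Of 45101 probe sets, 64 controls were left out; 34945 carried 1 symbol in the platform annotation given, 932 several and 9160 none. Each array was transformed to log2(intensity + 46.1), the 25th percentile of all values, and shifted to a common median. Probe sets above their array's median on at least 4 arrays were kept (29004), and a gene was represented by its kept probe set of highest mean. One model over the 6 groups was fitted with limma 3.58.1 in R 4.3.3 on 13333 genes (32 residual degrees of freedom), with Benjamini-Hochberg adjustment over all genes; fold changes are on the log2(intensity + 46.1) scale and understate those of dim genes. The fit was tested on simulated data. Leukaemia was the unweighted mean of the 5 cohorts; each cohort was also set against normal marrow and against the other 4, with an F test among cohorts. Array sets were drawn at the widest gap of a score from 5 probe sets and bright arrays at 2 median absolute deviations over 9 hybridisation control probe sets; both limits were set after the values were seen, and neither is a labelled batch. Promoters were RefSeq sequences on GRCm38.p6.

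Any of the 41 genes could be named; of each other pathway list, up to 4 called genes with the largest change, or any gene of a list of 10 or fewer. The genes and lists were chosen with earlier results of these data known. Alternatives were the scaling, the constant, the filter, the probe set rule, array weights, array sets, bright arrays and each array left out.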

Additional observations from a re-analysis of the deposited data

Results flagged for a closer look

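In 16 of 240 gene and group combinations (6.67%; chance gives about 1 in 20) the highest or lowest mouse stood apart from its group, judged by the share of the group's range that separated it from the next mouse. Normal sample 1 was the highest normal value of Eif3d (share 0.894), Eif4e (0.952) and Eif4e2 (0.859), and normal sample 2 the lowest of Eif2b2 (0.887). In the MLL-GAS7 cohort, MLL-GAS7_406 was highest for Eif1b (0.773) and Eif4a1 (0.903), and MLL-GAS7_407, a bright array, was lowest for Eif2b3 (0.712) and Eif6 (0.815). In the MLL-AF9 cohort, MLL-AF9_305 was lowest for Eif2d (0.725) and highest for Eif4a2 (0.738), and MLL-AF9_307 lowest for Eif4g3 (0.711). In the MLL-AF10 cohort, MLL-AF10_799A was lowest for Eif4a1 (0.575) and highest for Eif4e3 (0.569), and MLL-AF10_802A highest for Eif5 (0.582). In the MLL-ENL cohort, MLL-ENL_741 was highest for Eif2b3 (0.613) and MLL-ENL_701 lowest for Eif4h (0.684).

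Differences among the 5 fusion cohorts passed the limma F test for Eif2s2 (adjusted p = 0.0129), Eif2b4 (0.0148), Eif5a2 (0.0316) and Eif1b (0.046).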

How the results depend on the processing

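Of 498 gene values under 10 alternatives, 430 kept their direction and their side of the threshold, 12 became called, 41 lost their call and 15 changed sign; of 216 counts and medians, 182 held within their limits. The higher count over the 40 genes was 17 to 24 with any 1 array left out, and the eIF3 count 9 to 11. The count of 17 came without normal sample 4, where 22.9% of all genes were called higher. That of 24 came without MLL-GAS7_407, where 31.3% of all genes were. With the values as deposited, the genes called lower were 2 in all leukaemias, 3 in MLL-AF10, 2 in MLL-GAS7 and 2 in MLL-ENL marrow, the probe sets called lower 7 and the F test calls 7; Eif1ax (-0.015), Eif4a2 (-0.025) and Eif4e2 (-0.11) changed sign. After quantile normalization the lower genes were 2 in all leukaemias, 4 in MLL-AF1p, 2 in MLL-ENL and 3 each in MLL-GAS7 and MLL-AF10 marrow, the lower probe sets 7 and the median 0.23, and calls against the other cohorts were 2 in MLL-AF1p, 2 in MLL-GAS7 and 1 in MLL-ENL. Eif1ax (-0.075), Eif4a1 (-0.013), Eif4a2 (-0.13), Eif4b (-0.014), Eif4e (-0.052), Eif4e2 (-0.15), Eif4g2 (-0.22) and Eif5a (-0.032) then changed sign. Against the other cohorts, MLL-AF1p had 0 calls with a constant of 16, 0 with no filter, 2 with the mean of probe sets, 2 with the array set as a term and 0 within array set 2, and MLL-ENL had 2 with no filter. With the mean of probe sets, lower genes were 1 in MLL-AF1p and 0 in MLL-ENL marrow, MLL-GAS7 had 0 calls against the others, and Eif4ebp2 (-0.056) and Eif5a2 (-0.13) changed sign. Array weights gave 7 F test calls. Within array set 2, lower genes in MLL-AF1p were 1, higher genes in MLL-AF9 8 (2 mice remain), and F test, MLL-GAS7 and MLL-ENL calls 0; Eif4a1 was -0.069 there and -0.047 with the set as a term. With the bright arrays left out, MLL-GAS7 had 0 calls, MLL-ENL 1 and the F test 2. With 1 array left out, F test calls ran from 2 (without MLL-AF1p_806, MLL-AF9_308 or MLL-AF9_310) to 7 (without MLL-GAS7_406), MLL-AF1p calls from 0 to 2 (without MLL-AF1p_805 or MLL-GAS7_407), MLL-ENL calls from 1 (without MLL-ENL_760, MLL-ENL_702, MLL-ENL_741 or MLL-ENL_703) to 6 (without MLL-GAS7_406 or MLL-AF9_301), MLL-GAS7 calls from 0 (without MLL-GAS7_407 or MLL-GAS7_408) to 3 (without MLL-GAS7_406), genes lower in MLL-AF10 from 1 to 2 (without normal sample 3) and Eif4e2 from -0.0055 to 0.070. For the lower, cohort and F test counts, shares of all genes were not taken under the alternatives, so these counts have no background here. The cause of the changes under the alternatives was not tested, except that array set 2 and the fits without arrays hold fewer samples. No paired analysis was possible because the mouse numbers are not shared between groups. The 4 normal samples serve every comparison with normal marrow.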
